A study of Arabidopsis thaliana with 12 samples.

Results

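The genes described here are 9 genes of suberin synthesis, GPAT5 (AT3G11430), CYP86A1 (AT5G58860), CYP86B1 (AT5G23190), ASFT (AT5G41040), FAR1 (AT5G22500), FAR4 (AT3G44540), FAR5 (AT3G44550), KCS2 (AT1G04220) and KCS20 (AT5G43760), together with the cutinase gene CDEF1 (AT4G30140). They were chosen by name, and all 10 were found among the 20814 genes of the table. CDEF1 was chosen with its level in the libraries labelled IAA already known, so the difference of the 10 genes between IAA and mock is given below as a description, with no test. Poly(A) RNA was sequenced from roots of wild-type Arabidopsis seedlings that had grown for 4 d and were then moved for 3 d to medium with mock (the solvent), with BiAux at 5 µM, with IAA at 10 nM, or with both at these doses (BiAux+IAA), with 3 libraries for each of the 4 treatments. IAA (indole-3-acetic acid) is the main natural auxin, and BiAux is a synthetic bisindole compound built from auxin units and an acetylated sugar. The labels do not say whether the 3 libraries of a treatment came from separately grown seedlings, so the p-values measure the spread between these libraries, which may be technical.

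A treatment name below is always that of the library title. A second field of the labels names another treatment in 7 of the 12 libraries, and the fold changes tabulated with the study for BiAux follow the libraries titled IAA and not those titled BiAux. Which of both compounds the libraries labelled BiAux and IAA received is therefore not certain, whereas the measured differences between the groups hold under either name. The values are normalized counts, whose totals ran from 32413978 to 32720463 per library, and the study's methods give a nominal sequencing depth for all libraries but not the reads obtained in each, so no counting error is given for single values.

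Suberin is a polyester of long-chain fatty acid derivatives, glycerol and ferulic acid that is laid down as lamellae on the walls of root endodermis cells and limits the passage of water and solutes. Its monomers are made by elongation of fatty acids, oxidation of the chain end, reduction to fatty alcohols, transfer to glycerol and coupling to ferulate. Cutin is the related polyester of the shoot surface, and cutinases are esterases that cut such polyesters. The suberized endodermis is the layer that lateral roots must cross when they emerge, and in Arabidopsis the CDEF1 promoter is known to be active at sites of lateral root emergence as well as in pollen.

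CDEF1 was the one gene of the 10 that passed the limits of the test in any comparison, and the only one whose level differed several-fold among the treatments. It is annotated in the RefSeq genome TAIR10.1 at chr4:14738326-14740742 on the minus strand, with 5 exons and 1518 exonic bases. GPAT5, at chr3:3595694-3597952 on the plus strand with 2 exons and 2000 exonic bases, is the synthesis gene whose libraries labelled BiAux lay closest together. The 250 bases before the annotated start of both genes are shown so that the gene that moved can be set beside one of the synthesis genes. They are written 5′ to 3′ on the strand of the gene and lie at chr4:14740743-14740992 (minus strand) for CDEF1 and chr3:3595444-3595693 (plus strand) for GPAT5, both in TAIR10.1. Capitals mark the motifs ACGTG, the core of the abscisic acid response element, and ACCAAC, an AC element of the kind bound by MYB factors, which were searched on both strands.
CDEF1: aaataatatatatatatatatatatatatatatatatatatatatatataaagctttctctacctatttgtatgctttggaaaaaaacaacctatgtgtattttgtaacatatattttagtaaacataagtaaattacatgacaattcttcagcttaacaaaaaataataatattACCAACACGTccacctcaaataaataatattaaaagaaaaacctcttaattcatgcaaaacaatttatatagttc
GPAT5: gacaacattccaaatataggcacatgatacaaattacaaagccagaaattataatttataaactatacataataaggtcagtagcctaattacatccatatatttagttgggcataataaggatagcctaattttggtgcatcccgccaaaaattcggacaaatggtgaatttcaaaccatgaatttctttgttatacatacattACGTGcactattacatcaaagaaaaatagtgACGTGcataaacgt

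In the CDEF1 window ACCAAC started 75 bases before the gene and overlapped ACGTG, which was found on the opposite strand 70 bases before the gene. GPAT5 held ACGTG at 45 and 14 bases before the gene. Over the 10 genes, ACGTG was found for 4 (CDEF1, FAR1, FAR4 and GPAT5), ACCAAC for CDEF1 alone, and the AC element ACCTAC for CYP86B1 alone. The auxin response elements TGTCTC and TGTCGG and the evening element AAAATATCT were found in 0 of the 10 windows. The same window was taken before 27443 protein-coding genes of the nuclear genome. Among these windows ACGTG was present in 22.9%, ACCAAC in 11.5%, ACCTAC in 4.6%, TGTCTC in 10.9%, TGTCGG in 4.16% and AAAATATCT in 2.36%. These matches describe letters in a short window and say nothing about binding.

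The 9 synthesis genes were expressed at very different levels, compared here as normalized counts per kb of exon averaged over the 12 libraries (± SD). CYP86A1, a fatty acid omega-hydroxylase, was the most abundant at 5131 ± 423 per kb, followed by ASFT, the feruloyl transferase, at 3407 ± 422 per kb. KCS20, a fatty acid elongase, was at 2189 ± 160 per kb and FAR5, a fatty acyl reductase, at 1578 ± 169 per kb. GPAT5, the acyltransferase that joins acyl chains to glycerol, was at 1189 ± 109, CYP86B1 at 1120 ± 122 and FAR4 at 1050 ± 111 per kb, and these 3 neighbours lay within their spread of each other. CDEF1 followed at 989 ± 576 per kb, with a spread set by the treatments. KCS2 was at 463 ± 101 per kb and FAR1 at 101 ± 38.4 per kb, so the least abundant synthesis gene still averaged 7.03 counts per M (CPM). All 10 genes passed the filter for testing, a mean level of 0.5 CPM or more over the libraries, as did 19338 genes in all.

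**Figure D1:**
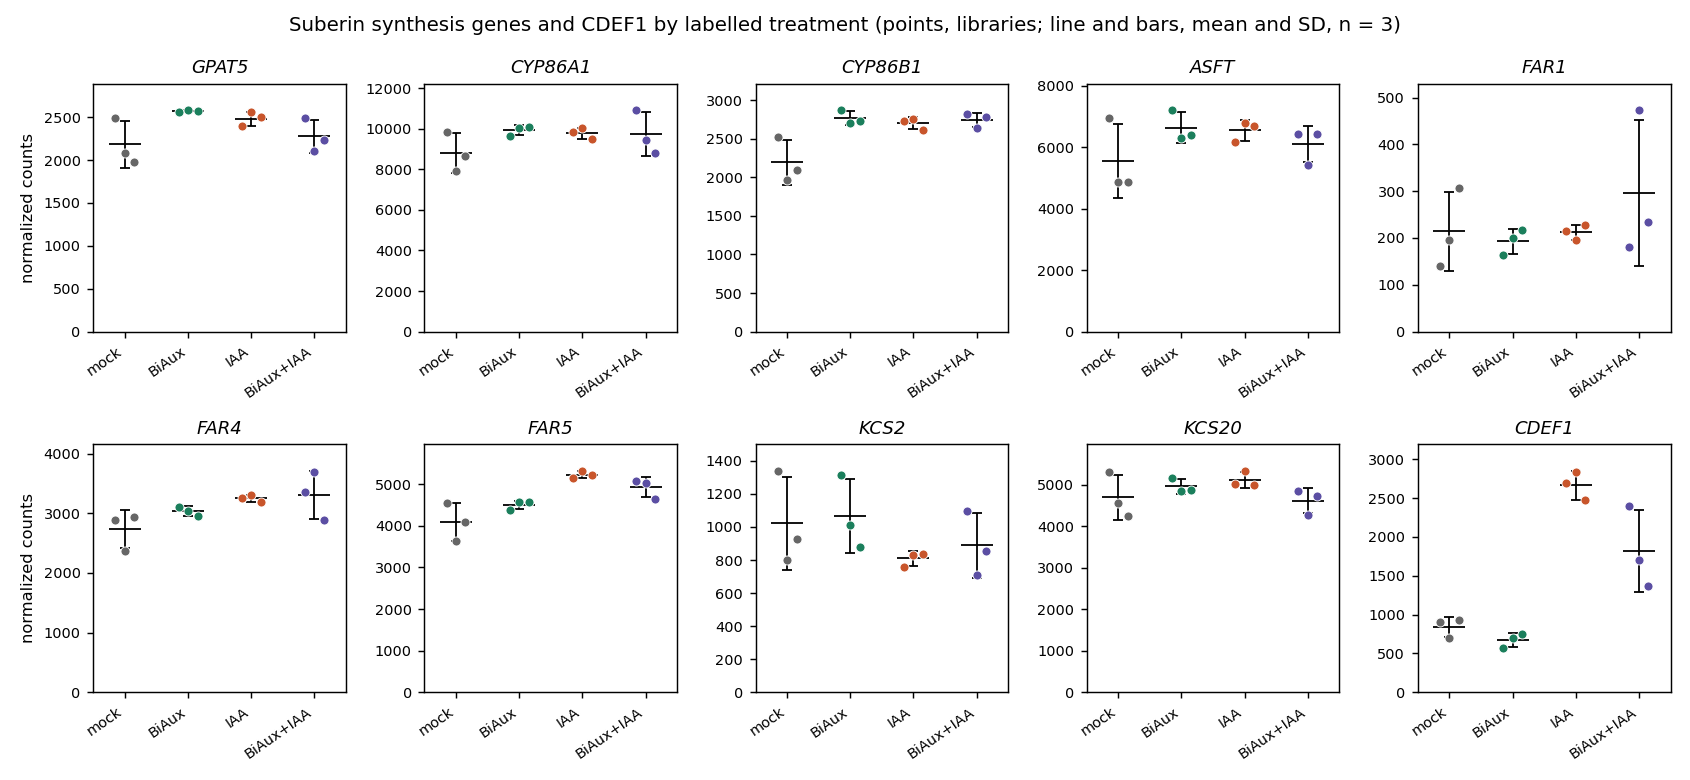
Normalized counts (vertical axes, each from 0) of the 9 suberin synthesis genes and CDEF1 in each library, by labelled treatment. Points are libraries, the horizontal line is the mean and the bars are the SD (n = 3). CDEF1 lies between 575 and 933 in the mock and BiAux libraries and between 1366 and 2836 in the libraries with IAA, whereas the highest group mean of a synthesis gene is at most 1.54 times its lowest.

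CDEF1 had 905, 693 and 933 normalized counts in the mock libraries (844 ± 131, SD, n = 3) and 575, 694 and 748 with BiAux (672 ± 88.5). It had 2690, 2836 and 2470 normalized counts with IAA (2665 ± 184) and 2399, 1701 and 1366 with BiAux+IAA (1822 ± 527). The 6 libraries with IAA all lay above the 6 libraries without it, a separation that includes the libraries with which CDEF1 was chosen and that 1.57% of all genes showed. The highest group mean was 3.96 times the lowest. For the synthesis genes the same ratio of group means ran from 1.11 for KCS20 to 1.54 for FAR1. Between IAA and mock, the contrast with which CDEF1 was chosen, its log2 fold change was 1.65, a 3.14-fold higher level. In that contrast 3.29% of all genes passed the limits given next, from which nothing is read for the 10 genes. A gene is called changed here when its p before adjustment is under 0.05 and its log2 fold change is past 0.5 in either direction. The study's methods name limits of this size together with a multiple-test correction, and taking p before adjustment was a choice made here, so the adjusted p is given beside each test. Fold changes are on the scale log2(normalized count + 16.3).

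The libraries with BiAux+IAA and with BiAux have no library in common with the contrast that chose CDEF1. By their titles they differ by IAA, and if the titles BiAux and IAA are exchanged they differ by BiAux. The genes and tests were chosen with earlier results of these data known, so this is not an independent second test of CDEF1. CDEF1 rose by 1.39 on the log2 scale (SE 0.19, 95% interval 0.95 to 1.82), a 2.61-fold change, with a limma adjusted p of 0.0431 by the Benjamini-Hochberg method over all genes. It was the only one of the 10 genes called, in a comparison in which 2.74% of all genes were. All 3 BiAux+IAA libraries lay above all 3 BiAux libraries, as in 9.88% of all genes. When each of the 6 libraries was left out in turn, CDEF1 was called each time, with a log2 fold change from 1.17 to 1.57 and an adjusted p from 0.0158 to 0.228, and over the other settings the adjusted p ran from 0.00879 to 0.0511. With a library left out, between 1.96% and 3.95% of all genes were called.

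Against mock, CDEF1 rose with BiAux+IAA by 1.07 on the log2 scale (SE 0.20, 95% interval 0.61 to 1.52, limma adjusted p 0.0417), a 2.1-fold change. It was again the 1 gene of the 10 called, with 5.6% of all genes called. The mock libraries are the same as in the contrast that chose the gene. Its call held when each library was left out, with an adjusted p from 0.0205 to 0.151, where between 4.76% and 6.65% of all genes were called.

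No rise of CDEF1 was seen with BiAux alone. Its log2 fold change against mock was -0.32 (SE 0.15, 95% interval -0.67 to 0.04, limma adjusted p 1.00), with overlapping groups, and 0 of the 10 genes were called in a comparison in which 1.59% of all genes were. In libraries that had IAA, the level of CDEF1 was lower with BiAux than without. The difference between BiAux+IAA and IAA was -0.58 on the log2 scale (SE 0.16, 95% interval -0.93 to -0.24, limma adjusted p 0.068), 1 of the 10 genes was called and 3.4% of all genes were. The 3 BiAux+IAA libraries lay below the 3 IAA libraries, as in 15.7% of all genes, but they were also spread from 1366 to 2399, and without BiAux+IAA 3, the lowest, the difference was -0.39 and no longer called (adjusted p 0.191). This comparison shares the IAA libraries with the contrast that chose the gene. The fall with BiAux in the presence of IAA did not differ detectably from the difference in its absence. The interaction was -0.26 (SE 0.25, 95% interval -0.82 to 0.29, limma adjusted p 0.853), an interval that includes no interaction as well as one of -0.82. This interaction contains the difference between IAA and mock with which CDEF1 was chosen, so for CDEF1 it is a description. Of the 10 genes 0 were called for the interaction by limma, and 2.34% of all genes were. At an unadjusted p under 0.05 there were 2 of the 10, against 7.94% of all genes.

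**Figure D2:**
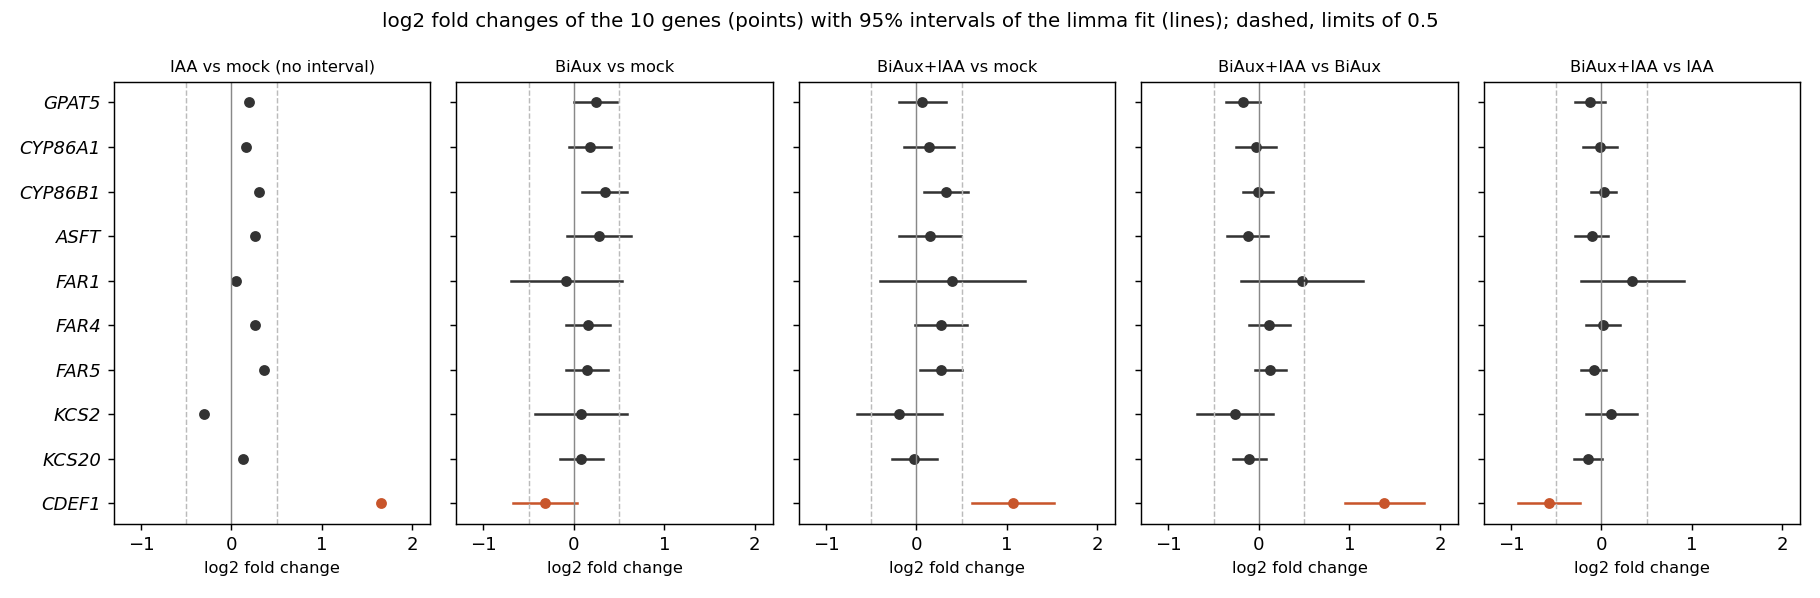
log2 fold changes of the 10 genes (horizontal axes) in 5 comparisons, on the scale log2(normalized count + 16.3). Points are fitted changes, lines are 95% intervals of the limma fit on 3 against 3 libraries, and dashed lines mark 0.5 and -0.5; IAA vs mock has no intervals because CDEF1 was chosen on it. CDEF1 is at 1.07 and 1.39 in the comparisons of BiAux+IAA with mock and with BiAux, while the synthesis genes lie between -0.26 and 0.48 there.

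None of the 9 synthesis genes was called in any comparison by limma. At an unadjusted p under 0.05 alone, there were 2 of the 9 between BiAux and mock (GPAT5 and CYP86B1), where 4.25% of all genes had such a p, and 2 between BiAux+IAA and mock (CYP86B1 and FAR5), where 13.2% did. There were 0 of the 9 between BiAux+IAA and IAA, against 20.5% of all genes, and 0 between BiAux+IAA and BiAux, against 10.5%. The median log2 fold change of the 9 genes was 0.16 for BiAux, 0.19 for IAA and 0.15 for BiAux+IAA against mock, where the medians of all genes tested were -0.04, 0.00 and -0.01. These 3 comparisons share the mock libraries. Between BiAux+IAA and BiAux the median of the 9 genes was -0.03, and that of all genes was 0.02.

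The hydroxylases CYP86A1 and CYP86B1 oxidize the end of the acyl chain, CYP86B1 that of the very long chains. CYP86B1 had 2524, 1972 and 2091 normalized counts in mock and 2873, 2705 and 2737 with BiAux. It had 2728, 2764 and 2620 with IAA and 2820, 2648 and 2781 with BiAux+IAA. The 9 treated libraries all lay above the 3 mock libraries, as in 1.04% of all genes, and ran from 2620 to 2873. This separation includes IAA against mock and is likewise a description, with no test. The log2 fold change of CYP86B1 was 0.34 with BiAux (SE 0.11, 95% interval 0.09 to 0.59, limma adjusted p 0.88) and 0.33 with BiAux+IAA (SE 0.11, 95% interval 0.08 to 0.58, adjusted p 0.203), both below the limit of 0.5. With the replicate number as a block, which takes BiAux and mock libraries of the same number as pairs, its adjusted p for BiAux was 0.0208 by limma. This pairing was taken from correlations in these same data. With the block 538 of all genes had an adjusted p under 0.05 in that comparison, against 6 without it. CYP86A1 had 9836, 7923 and 8670 normalized counts in mock against 9634 to 10092 with BiAux, and its log2 fold change was 0.18 (95% interval -0.06 to 0.41). In CYP86A1 the highest library was BiAux+IAA 1 with 10921, in a group that reached down to 8797.

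GPAT5 had 2489, 2084 and 1974 normalized counts in mock (2182 ± 271, SD, n = 3) and 2556, 2581 and 2566 with BiAux (2568 ± 12.6). It had 2393, 2557 and 2496 with IAA (2482 ± 82.9) and 2487, 2107 and 2239 with BiAux+IAA (2278 ± 193). The BiAux libraries were above all mock libraries, as in 3.45% of all genes. The log2 fold change of GPAT5 was 0.24 between BiAux and mock (SE 0.10, 95% interval 0.00 to 0.48, limma adjusted p 1.00) and -0.18 between BiAux+IAA and BiAux (SE 0.08, 95% interval -0.36 to 0.01, adjusted p 0.492).

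ASFT, which couples ferulate to omega-hydroxy acids, had 6940, 4860 and 4873 normalized counts in mock and 7205, 6303 and 6404 with BiAux. It had 6156, 6797 and 6704 with IAA and 6426, 5419 and 6440 with BiAux+IAA. One mock library was as high as the treated libraries and the other mock libraries were below all of them. The log2 fold change of ASFT between BiAux and mock was 0.27 (SE 0.15, 95% interval -0.08 to 0.63, limma adjusted p 1.00).

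KCS2 and KCS20 are 3-ketoacyl-CoA synthases that elongate the fatty acids of suberin and, in shoots, of wax. KCS20 varied least of all, from 4251 in mock 3 to 5337 in IAA 2, with log2 fold changes between -0.15 and 0.13 in the comparisons among treatments. KCS2 had 1339, 802 and 927 normalized counts in mock, 1314, 1009 and 881 with BiAux, and 1097, 712 and 855 with BiAux+IAA. With IAA it had 760, 833 and 837 normalized counts. KCS2 was the synthesis gene with the largest fitted difference between the libraries labelled IAA and BiAux, -0.37 (SE 0.14, 95% interval -0.69 to -0.05, limma adjusted p 0.22). The doses of both compounds differ, so their effects were not compared further. Of the 9 synthesis genes 0 were called there by limma, with 3.41% of all genes called, and 2 had an unadjusted p under 0.05 (KCS2 and FAR5), as 18.8% of all genes did. Of these, FAR5 had the smaller p, with a difference of 0.21 (SE 0.06, 95% interval 0.08 to 0.35, limma adjusted p 0.143). CDEF1 differed there by 1.97, a value that shares the IAA libraries with the contrast that chose the gene and is given as a description.

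FAR1, FAR4 and FAR5 reduce acyl groups of different chain lengths to the primary fatty alcohols of suberin. FAR4 and FAR5 lie on the same strand of chromosome 3, 9545 bases apart with 1 gene between them. FAR5 had 4544, 3645 and 4084 normalized counts in mock and 4389, 4563 and 4560 with BiAux. It had 5144, 5318 and 5220 with IAA and 5087, 5035 and 4655 with BiAux+IAA. The 6 libraries with IAA were thus all above the 6 without, like the 1.57% of all genes named for CDEF1. This separation includes IAA against mock, so it is given for FAR5 as a description, with no test. The log2 fold change of FAR5 was 0.27 between BiAux+IAA and mock (SE 0.10, 95% interval 0.04 to 0.51, limma adjusted p 0.291) and 0.13 between BiAux+IAA and BiAux (SE 0.07, 95% interval -0.04 to 0.30, adjusted p 0.564), neither past the limit.
FAR4 had 2895, 2363 and 2942 normalized counts in mock and 2887 to 3688 with BiAux+IAA, a log2 fold change of 0.27 (95% interval -0.01 to 0.56). FAR1, the least abundant, had 140, 196 and 306 normalized counts in mock and 163, 200 and 216 with BiAux. It had 215, 195 and 227 with IAA and 181, 473 and 235 with BiAux+IAA. BiAux+IAA 2 stood above the other 11 libraries in FAR1. The log2 fold change of FAR1 between BiAux+IAA and BiAux was 0.48 (SE 0.30, 95% interval -0.20 to 1.15, limma adjusted p 0.585), and it was 0.10 without BiAux+IAA 2.

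The mock libraries differed among themselves. Mock 1 was the highest mock library for 7 of the 9 synthesis genes, and mock 2 was the lowest of all 12 libraries for 5 and mock 3 for 2. The summed level of the 9 genes was 1111 CPM in mock 1, 868 in mock 2 and 928 in mock 3. The sum was between 1084 and 1118 CPM with BiAux, between 1093 and 1139 with IAA and between 1036 and 1140 with BiAux+IAA, so that mock 1 lay within the range of the treated libraries and mock 2 and mock 3 below it. Without mock 1 the log2 fold changes with BiAux were larger, 0.34 for GPAT5, 0.45 for CYP86B1 and 0.44 for ASFT, with adjusted p of 0.308, 0.189 and 0.249 by limma, and none of the 9 genes was called. Of all genes 3.98% were called there.

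Markers of the endodermis cells that carry the Casparian strip, the lignin band that precedes suberin, also had their highest sum among the mock libraries in mock 1, whereas their lowest sum was in mock 3 and that of the synthesis genes in mock 2. Their summed level over the 10 genes of the list was 1274, 826.5 and 676 CPM in the mock libraries, between 923 and 1256 with BiAux, between 951.7 and 1095 with IAA and between 727.7 and 1054 with BiAux+IAA. CASP1, which scaffolds the strip, had 14441, 8846 and 6850 normalized counts in mock and made up much of the sum. Among these markers ESB1 was near 0, with 4 to 20 normalized counts, and below the filter. Of the 9 markers tested, 0 were called by limma between BiAux+IAA and BiAux, where 2.74% of all genes were, and 0 had an unadjusted p under 0.05, where 10.5% did. Against mock, 0 were called with BiAux+IAA, compared with 5.6% of all genes, and 1 had such a p, compared with 13.2%. Against IAA, 1 was called, compared with 3.4%, and 3 had such a p, compared with 20.5%. There 2 of the 9 had a limma adjusted p under 0.05 (smallest 0.0337), as had 741 of the 19338 genes tested. The called marker, CASP5, was lower with BiAux+IAA (-0.65, limma adjusted p 0.0377), though not called without BiAux+IAA 2 (-0.43). In these bulk roots, fewer cells of a type and less RNA per cell cannot be told apart, and the part of cell composition in the differences between mock libraries was not tested. Root markers summed to between 11190 and 16810 CPM over 6 genes, mostly from PYK10, with 336208 to 522473 normalized counts. WOX5 had 74 to 157. Of the 6, 1 was called lower between BiAux and mock, against 1.59% of all genes, and 1 between BiAux+IAA and mock, against 5.6%. This was WOX5 both times (-0.54 and -0.71, limma adjusted p 0.615 and 0.0617). Between BiAux+IAA and BiAux 1 was also called lower, against 2.74%. Shoot markers, of which 5 of 6 were in the table, summed to between 80.99 and 98.14 CPM in mock and between 54.17 and 77.4 CPM in the treated libraries. Of the 5 shoot markers, 2 were called lower between BiAux and mock, where 1.59% of all genes were called. These were CAB1 and RBCS1A, genes of photosynthesis (-1.0 and -1.07). Between BiAux+IAA and mock 1 was called lower, RBCS1A (-0.61), against 5.6% of all genes. Between BiAux+IAA and BiAux 1 was called higher, against 2.74%. For the interaction 3 of the 5 were called higher, against 2.34% of all genes (smallest limma adjusted p 0.131). The part of the shoot markers in the results for the suberin genes was not tested.

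**Figure D3:**
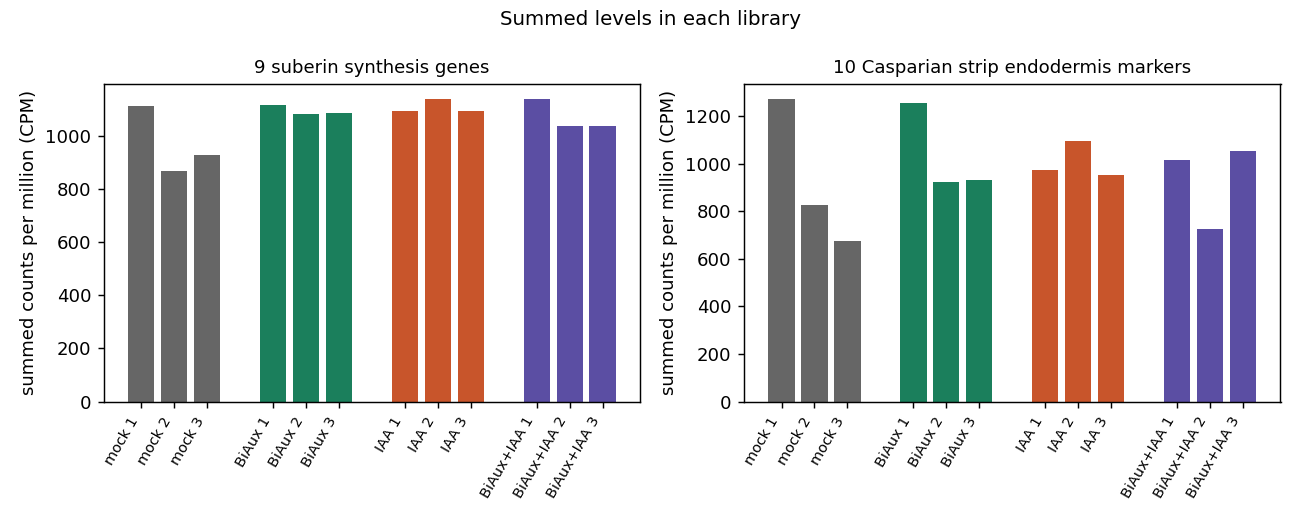
Summed CPM (vertical axes, from 0) of the 9 suberin synthesis genes and of 10 markers of the endodermis with a Casparian strip, one bar per library, coloured by labelled treatment. The mock libraries differ in both sums, from 868 to 1111 and from 676 to 1274 CPM, with mock 1 the highest of the 3.

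The synthesis genes differed in how closely they followed each other across the 12 libraries. The median Pearson correlation of a gene with the other 8 synthesis genes was 0.706 for CYP86B1, 0.678 for CYP86A1, 0.624 for ASFT, 0.621 for GPAT5, 0.536 for FAR5, 0.504 for KCS20 and 0.372 for FAR4, whereas it was 0.265 for KCS2 and -0.428 for FAR1. After removal of the treatment means it was 0.759 for GPAT5, 0.755 for CYP86B1 and 0.703 for KCS2, and -0.679 for FAR1. CDEF1 had a median correlation of 0.208 with the 9 synthesis genes, from -0.457 with KCS2 to 0.817 with FAR5. After removal of the treatment means its median was 0.287. These values describe 12 libraries that share normalization. Of the 15218 other genes that averaged 5 CPM or more, those whose pattern over the 12 libraries was most like that of CDEF1 were AT2G19970 (Pearson r 0.980, Spearman rho 0.965), AT2G32430 (0.950 and 0.90), IQD12 (0.947 and 0.888), AT5G47550 (0.938 and 0.916) and MYB39 (0.935 and 0.951). AT2G19970 had mean normalized counts of 514 in mock, 371 with BiAux, 1135 with IAA and 792 with BiAux+IAA. The mean of the 9 synthesis genes was most closely followed by AT2G43590 (r 0.941), GPDHC1 (0.939), VPS2.3 (0.938), FDH (0.937) and ATG8D (0.930).

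Of the other genes of the suberin pathway, a list of 25 transcription factors, transporters and enzymes of which 24 were tested, 0 were called between BiAux and mock by limma, against 1.59% of all genes, and 3 had an unadjusted p under 0.05, against 4.25%. Between BiAux+IAA and BiAux, 2 of the 24 were called, 1 higher and 1 lower, against 2.74% of all genes. With mock in place of BiAux 3 were called, all lower with BiAux+IAA, against 5.6%. With IAA in its place 0 were called, against 3.4%, and 9 had an unadjusted p under 0.05, against 20.5%. There 2 of the 24 had a limma adjusted p under 0.05 (smallest 0.0438), as had 741 of the 19338 genes tested. The median log2 fold change of the list lay between -0.07 and 0.17 in these 4 comparisons.
MYB39, which activates suberin synthesis genes in the root endodermis, had 260, 206 and 261 normalized counts in mock and 185, 235 and 197 with BiAux. It had 380, 397 and 414 with IAA and 347, 266 and 340 with BiAux+IAA. The libraries with IAA were all above those without, as in 1.57% of all genes. MYB39 rose between BiAux and BiAux+IAA by 0.59 on the log2 scale (SE 0.14, 95% interval 0.27 to 0.90, limma adjusted p 0.187), a call that was lost at 0.497 with a pseudocount of 2 CPM. MYB9, a regulator of suberin in the seed coat, had 68, 72 and 78 normalized counts in mock and 138, 148 and 105 with IAA. With BiAux+IAA it had 84, 103 and 83, against 56, 84 and 92 with BiAux, and was not called between them (0.20, 95% interval -0.21 to 0.61).
MYB41, which induces suberin when overexpressed, went the other way. It had 550, 387 and 450 normalized counts in mock, 335, 411 and 374 with BiAux, 258, 271 and 294 with IAA and 218, 175 and 229 with BiAux+IAA. MYB41 fell between mock and BiAux+IAA by 1.09 on the log2 scale (SE 0.16, limma adjusted p 0.0163) and between BiAux and BiAux+IAA by 0.80 (SE 0.13, adjusted p 0.0719), calls that held when any one library was left out. ABCG1 and ABCG16 are transporter genes of the list. ABCG1 fell between mock, with 532, 619 and 607 normalized counts, and BiAux+IAA, with 287, 384 and 338, by 0.78 on the log2 scale (SE 0.13, limma adjusted p 0.0291). ABCG16 went from 697, 673 and 696 normalized counts to 424, 421 and 545, and fell by 0.57 (SE 0.12, adjusted p 0.0654). Of the 6 phenylpropanoid genes that supply ferulate and of the 8 cutin genes tested, 0 were called in each of these 4 comparisons by limma, with the shares of all genes called as given for the suberin pathway. At an unadjusted p under 0.05 there were 2 of the 6 and 0 of the 8 between BiAux and mock (4.25% of all genes), 1 and 0 between BiAux+IAA and mock (13.2%), 2 and 3 between BiAux+IAA and IAA (20.5%), and 0 and 1 between BiAux+IAA and BiAux (10.5%).

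**Figure D4:**
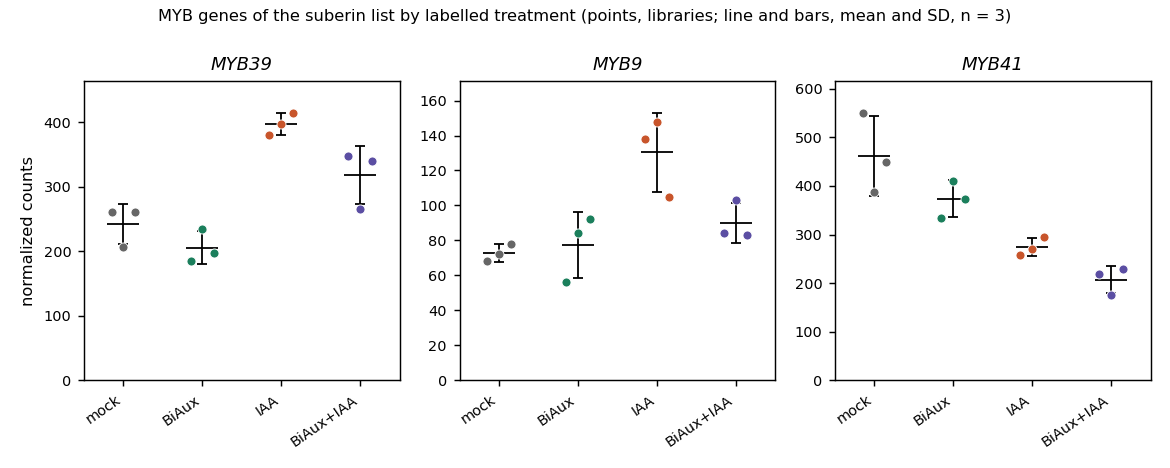
Normalized counts (vertical axes, from 0) of MYB39, MYB9 and MYB41 in each library by labelled treatment. Points are libraries, the horizontal line is the mean and the bars are the SD (n = 3). MYB39 lies between 266 and 414 with IAA and between 185 and 261 without, whereas MYB41 is lowest with BiAux+IAA, between 175 and 229.

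Counts of some members may have gained or lost reads through other genes. FAR1 overlaps AT5G22505 on the opposite strand over 1310 bases, and KCS2 overlaps the long noncoding RNA AT1G04247 over 2302 bases. The study's methods name the union option of HTSeq, but whether the counting used strand is not given in the sources used here. How the overlaps changed the counts of FAR1 and KCS2 was not determined. CDEF1 overlaps its neighbour AT4G30130 by 10 bases. No transcript of the 10 genes matched another gene at 98% identity or more over 100 bases. KCS2 and KCS20 matched each other with 86.7% over 812 bases, and FAR5 matched another place in the genome with 89.7% over 301 bases.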

How the data were processed

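Per the deposited table and the study's methods, reads were trimmed and mapped to TAIR10 by the authors, who counted reads per gene with HTSeq, normalized the counts with edgeR and deposited log2 values with 3 decimals. They were read as the log2 of a whole normalized count plus 1, which every log2 value up to 8 matched within 0.0015, while the decimals cannot show it for larger values. STAR is named as the aligner in the methods and HISAT2 in the submitters' processing notes, which also name CASAVA 1.4 and FastQC. Here the log2 was undone. Raw reads could not be recovered, so no count model was run, and the table holds no gene under 3 in IAA 3. Genes averaging 0.5 CPM or more, 19338 in all, were fitted as log2(normalized count + 16.3, that is 0.5 CPM) by limma 3.58.1 in R 4.3.3 (lmFit, then eBayes with a trend). Comparisons used their 6 libraries and the interaction all 12, with Benjamini-Hochberg adjustment over all genes. The fits were tested on simulated data.

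Groups and replicate numbers came from the titles. Deviations of BiAux and mock libraries with the same number correlated at 0.779, 0.407 and 0.58, so these numbers were taken to pair them, although of the pairs with different numbers BiAux 2 and mock 3 reached 0.62 and BiAux 3 and mock 2 reached 0.482. The block was an alternative. Named genes are the 10 genes, the called genes of the pathway lists and of the Casparian strip markers, and the 5 genes most like CDEF1 and the synthesis mean. Of the root and shoot markers called, only some are named. These genes, lists and tests were chosen with earlier results of these data known. The alternatives were pseudocounts of 0.1 and 2 CPM, no filter or one of 5 CPM, factors by median of ratios, the deposited log2 values untouched, 1 joint fit of the 12 libraries, the block and leaving out each library. Upstream sequences were read from TAIR10.1 with RefSeq gene models, and transcripts were compared with BLAST+ 2.17.0. Plots were made with matplotlib 3.10.9 in Python 3.11.15. Protein sequences and the tir1-1 libraries were not analysed here.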

Additional observations from a re-analysis of the deposited data

Results flagged for a closer look

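For GPAT5 and CYP86B1 the effect of IAA differed with and without BiAux at an unadjusted p under 0.05. The interaction was -0.37 on the log2 scale for GPAT5 (SE 0.13, 95% interval -0.64 to -0.09) and -0.32 for CYP86B1 (SE 0.12, 95% interval -0.58 to -0.05), from the limma fit of all 12 libraries. Neither passed adjustment over all genes (adjusted p 0.534 and 0.558), nor did any of the 19338 genes, of which 1535 had an unadjusted p under 0.05. When each of the 12 libraries was left out, the interaction lay between -0.46 and -0.30 for GPAT5 and between -0.42 and -0.24 for CYP86B1. Both genes had their lowest levels in mock 2 and mock 3, and the part of the mock libraries in these values was not tested.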

How the results depend on the processing

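For the 10 genes, 548 of 550 fold changes under settings other than leaving out a library, and 450 of 480 with 1 library left out, kept their direction and their side of the limits. No change of CDEF1 reversed. With median-of-ratios factors the interaction of KCS2 was -0.0012 and the change of KCS20 between BiAux+IAA and mock 0.0004.

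With each library left out, the number of the 10 genes called ran from 1 to 2 between BiAux+IAA and BiAux and between IAA and BiAux, from 0 to 2 between BiAux+IAA and IAA, and from 0 to 1 for the interaction. FAR1 was called without BiAux+IAA 1, at 0.62 against IAA and 0.75 against BiAux, where 4.19% and 3.24% of all genes were called. KCS2 was called without BiAux 3 (-0.50, IAA against BiAux), where 5.77% of all genes were. ASFT was called without mock 1 (-0.55, interaction), where 6.61% were. Between BiAux and mock the range was -0.33 to 0.19 for FAR1 and -0.0818 to 0.28 for KCS2, and between IAA and mock -0.20 to 0.33 for FAR1. Between BiAux+IAA and mock it was -0.0033 to 0.16 for GPAT5, -0.35 to 0.0197 for KCS2 and -0.0909 to 0.0676 for KCS20. Between BiAux+IAA and IAA it was -0.10 to 0.0552 for CYP86A1, -0.0357 to 0.62 for FAR1, -0.0648 to 0.11 for FAR4 and -0.0515 to 0.25 for KCS2. Between BiAux+IAA and BiAux it was -0.12 to 0.0349 for CYP86A1 and -0.0298 to 0.0153 for CYP86B1, and between IAA and BiAux -0.0532 to 0.0430 for ASFT and -0.0418 to 0.0009 for CYP86A1. For the interaction of KCS2 it was -0.17 to 0.19. The causes were not tested.

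With the replicate block, the members called numbered 0 for BiAux and mock, 1 in each of the other 5 comparisons and 0 for the interaction, as without it. The block moved the genes called among all genes from 307 to 405 between BiAux and mock, and those with an adjusted p under 0.05 from 6 to 538. The share of all genes called was 0.864% with a pseudocount of 2 CPM and 3.98% without mock 1 in that comparison, 1.3% and 6.61% under the same settings for the interaction, and 1.97% with a pseudocount of 2 CPM both between IAA and mock and between IAA and BiAux. It was 1.48%, 1.94% and 3.58% with that pseudocount between BiAux+IAA and BiAux, IAA and mock. Settings for the listed pathway genes were added after seeing the data. FAR1 had the lowest counts of the 10 genes, and no counting error is given for it.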

Other observations

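FAR1 and FACT, which esterifies fatty alcohols with caffeate, had similar patterns over the 12 libraries (Pearson r 0.883, Spearman rho 0.636), and FACT ranked 26 among 15218 genes by its correlation with FAR1. The pair was picked after its values were seen. FACT had 2793, 3521 and 4904 normalized counts in mock, 3934, 4441 and 4617 with BiAux, 4623, 4281 and 4503 with IAA and 4724, 7984 and 4047 with BiAux+IAA. Both genes were highest in BiAux+IAA 2 and lowest in mock 1, and without BiAux+IAA 2 the Pearson r was 0.703 over 11 libraries. FAR1 had a negative median correlation with the other synthesis genes (-0.428), though it correlated positively with FAR4 (0.405) and FAR5 (0.116). In mock 1 it was the lowest of the 12 libraries while the Casparian strip markers were at their highest.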
